A study of Mus musculus with 26 samples.

Results

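The genes described here are 10 Snf2-family chromatin remodelling ATPases related to ATRX: Rad54l, Rad54b, Rad54l2, Smarca2, Smarca4, Smarca5, Chd1, Chd4, Hells and Smarcad1. They were chosen by name for their kinship with ATRX, and all 10 were found among the 53801 genes listed in the RNA-Seq files. RNA-Seq was made from female mouse embryonic fibroblasts (MEFs) of 3 groups, with 2 libraries a group. The WT group is the parental line. The ATRXΔRBR line is 1 clone in which CRISPR-Cas9 removed the RNA-binding region (RBR) of endogenous ATRX in frame, within an internal exon of Atrx. The group labelled ATRX KD carries an shRNA against Atrx and was selected with puromycin, so it differs from WT in both respects. CUT&RUN, which maps where a protein or histone mark sits on chromatin by antibody-guided cleavage, was made in the same lines for EZH2 and H3K27me3 in all 3 groups and for ATRX in WT and ATRXΔRBR, again with 2 libraries each. The comparisons ask how the RNA and the promoter occupancy of these genes differ where ATRX lacks its RBR or is targeted by shRNA. The study's methods call the replicate libraries biological replicates, and each group is a single line, so the p-values measure the spread between samples of these lines.

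Snf2-family ATPases use ATP hydrolysis to move along DNA, and most of them slide, eject or exchange nucleosomes. ATRX belongs to the RAD54-like branch of the family and deposits histone H3.3 together with DAXX at repeats and other heterochromatin, whereas the SWI/SNF, ISWI and CHD branches work as motors of large complexes at promoters and replicating chromatin. In fibroblasts these ATPases serve transcription, replication and DNA repair. EZH2 is the methyltransferase of Polycomb repressive complex PRC2 and places H3K27me3, a mark of silent genes.

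The sums of estimated counts ran from 9051693 to 21723647 a library, both extremes being libraries labelled ATRX KD, and mitochondrial genes took 2.13% to 2.77%. The first principal component, with 66.6% of the variance, set the libraries labelled ATRX KD apart from the other 4. The raw files of WT and ATRXΔRBR name 1 shared sequencing run and those of ATRX KD name none, so batch and group cannot be told apart for ATRX KD. Of 12 fibroblast markers, 9 reached 5 TPM in both WT libraries, 9 in both ATRXΔRBR libraries and 8 in both libraries labelled ATRX KD, with summed levels of 7440 to 9717, 11705 to 11804 and 11252 to 11811 TPM. Vim (3903 to 6511 TPM a library) and Col1a2 (1772 to 2848 TPM) led these sums, which therefore say little about the markers of lower level. Thy1, a defining surface marker of fibroblasts, was listed at 0 TPM in every library. Summed markers of epithelium, endothelium and pluripotent cells stayed at or below 5.4 TPM in every library, and those of blood cells lay between 7.6 and 14.6 TPM.

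Atrx itself (chrX:105797615-105929403, minus strand) checks the labels only in part. On counts scaled to a common library size with TMM factors (CPM), Atrx stood at 633 and 434 CPM in the WT libraries, 371 and 312 CPM in those of ATRXΔRBR, and 411 and 551 CPM in the libraries labelled ATRX KD. The ATRXΔRBR libraries were below both WT libraries without passing the test (log2 fold change −0.63, SE 0.22, edgeR adjusted p = 0.140), and the libraries labelled ATRX KD overlapped WT (−0.15, SE 0.21, edgeR adjusted p = 0.605). In the libraries labelled ATRX KD fitted against 1 WT library, Atrx changed by −0.40 without WT replicate 2, the lower of the WT pair. Without WT replicate 1 the change was 0.14, and such fits hold no spread within WT. A total over the gene does not show an in-frame deletion, and RNA does not measure ATRX protein. On TPM, a scale that also divides counts by the mean transcript length RSEM assigned, Atrx was higher in the libraries labelled ATRX KD by 1.18 on the log2(TPM + 1) scale (limma adjusted p = 0.0417), while the assigned length fell to 0.466 of that in WT, a ratio reached or undercut by 0.08% of 10121 genes. Directions given below for the libraries labelled ATRX KD therefore rest on the label, for which the Atrx RNA level gave no clear check.

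In WT the 10 members spanned a 20.95-fold range of mean TPM, the scale on which genes can be compared. Hells, a helicase that supports DNA methylation of repeats, was highest at 317 ± 34.4 TPM (SD, n = 2). Chd4, the motor of the NuRD deacetylase complex, followed at 134 ± 0.523 TPM and Smarca4 (BRG1), a motor of SWI/SNF, at 97.5 ± 18.0 TPM. These 3 genes did not overlap each other in the WT libraries. Chd1, a remodeller of transcribed genes, had 86.4 ± 26.5 TPM and overlapped both Smarca4 above it and Smarca5 (SNF2H), the ISWI motor, at 66.7 ± 2.11 TPM. Smarca2 (BRM), the alternative motor of SWI/SNF, stood below Smarca5 at 54.2 ± 3.02 TPM. That level rests on an assigned mean transcript length of 1715 bp, against 5459 bp for Smarca5. Rad54b at 45.4 ± 14.4 TPM, Rad54l at 38.0 ± 8.70 TPM and Smarcad1 at 35.8 ± 9.98 TPM overlapped with their neighbours in this order. Rad54l2 (ARIP4), a close relative of ATRX that binds steroid receptors, was lowest at 15.1 ± 3.45 TPM and lay below Smarcad1 in both libraries.

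**Figure D1:**
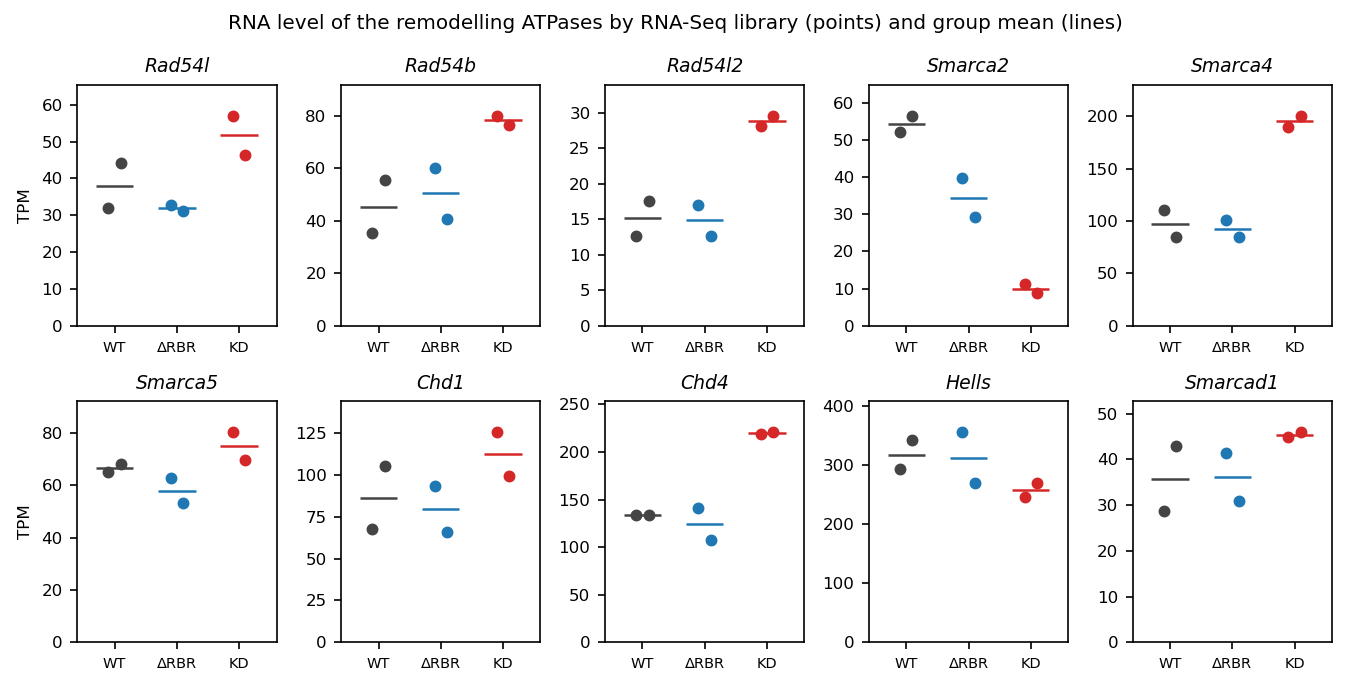
TPM of each member in the 6 RNA-Seq libraries. Points are libraries and lines are group means, with WT, ATRXΔRBR and the libraries labelled ATRX KD from left to right, and each panel has its own axis from 0. Smarca2 falls from 52.1 and 56.4 TPM in WT to 11.2 and 8.88 TPM in the libraries labelled ATRX KD. Smarca4, Chd4 and Rad54l2 are higher there than in any other library. On this scale so are Rad54b, Rad54l, Smarcad1 and Smarca5.

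The sequences the chromatin results turn on are stretches of GRCm38, plus strand, 5′ to 3′, with every CG dinucleotide in capitals, as CG-rich promoters are known as favoured sites of PRC2. The first lies before the outermost start of Smarca2 (chr19:26604910-26605049), a stretch covered wholly or in part by ATRX peaks in 1 WT and 1 ATRXΔRBR list. The second lies before the start of its paralogue Smarca4 (chr9:21615919-21616105), where no list had an ATRX or H3K27me3 peak. The next holds the bases shared by both ATRXΔRBR peaks before Chd1 (chr17:15704443-15704641), which also overlap 1 exon of a non-coding RNA in RefSeq. The last is an intron of Hells under an ATRX peak of 1 WT and 1 ATRXΔRBR list (chr19:38939199-38939374), shown as the contrast.
Smarca2 upstream: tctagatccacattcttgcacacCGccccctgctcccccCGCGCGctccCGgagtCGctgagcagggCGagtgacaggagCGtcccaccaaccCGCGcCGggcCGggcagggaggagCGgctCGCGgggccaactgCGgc
Smarca4 upstream: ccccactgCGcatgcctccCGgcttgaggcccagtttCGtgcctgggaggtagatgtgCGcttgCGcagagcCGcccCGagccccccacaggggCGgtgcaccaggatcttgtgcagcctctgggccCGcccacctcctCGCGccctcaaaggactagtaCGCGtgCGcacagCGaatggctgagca
Chd1 upstream: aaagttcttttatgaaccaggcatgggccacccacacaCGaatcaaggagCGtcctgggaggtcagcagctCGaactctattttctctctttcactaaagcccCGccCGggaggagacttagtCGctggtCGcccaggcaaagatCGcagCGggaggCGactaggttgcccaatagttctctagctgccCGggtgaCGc
Hells intron: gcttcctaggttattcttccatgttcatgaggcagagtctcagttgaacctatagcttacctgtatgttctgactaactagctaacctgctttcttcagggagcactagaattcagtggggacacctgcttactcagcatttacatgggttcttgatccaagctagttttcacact

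The Smarca2 stretch holds 16 CG in 140 bases (GC 73.6%), the Smarca4 stretch 15 in 187 (68.4%) and the Chd1 stretch 12 in 199 (56.8%), whereas the Hells intron holds 0 in 176 (43.8%). RefSeq promoters of 300 bases, 250 before and 50 after a start, were given for 7 of the members. Smarca2 has 29 CG in this window, Smarca4 33, Smarca5 32 and Hells 34, against a median of 7 over 32851 promoters. Chd4 has 17 and 29 at its annotated starts, Smarcad1 19 and 25, and Rad54l 13. At least as many CG as in the Smarca2 window were held by 12.9% of all promoters, against 37.9% for the Rad54l count, 31.4% for the lower Chd4 count and 28.1% for the lower Smarcad1 count. A run of 4 G on either strand (GGGG or CCCC) was found in 9 of 10 member windows, and in 86.4% of all promoters.

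Smarca2 (ENSMUSG00000024921, chr19:26605050-26778322, plus strand on GRCm38, as for all positions) was the member that moved most, and it was lower in both modified lines. Its level was 48.8 and 45.9 CPM in WT, 28.0 and 25.7 CPM in ATRXΔRBR, and 7.85 and 6.16 CPM in the libraries labelled ATRX KD, from 638 and 549 estimated counts in WT down to 72.0 and 133 in the last pair. The 3 groups did not overlap. In ATRXΔRBR Smarca2 fell 1.75-fold (log2 fold change −0.81, SE 0.18, edgeR adjusted p = 0.0327). It fell 6.90-fold in the libraries labelled ATRX KD (−2.79, SE 0.18, edgeR adjusted p = 0.00016). The smaller of these calls was lost without WT replicate 1 (edgeR adjusted p = 0.0872), without ATRXΔRBR replicate 2 (0.154) and with the replicate number as a block (0.120), and on log2(TPM + 1) the difference was −0.66 (limma adjusted p = 0.203). In bulk RNA, fewer cells that express a gene and less RNA per cell cannot be told apart. Of 12 fibroblast markers 10 were tested, of which 1 fell and 0 rose in ATRXΔRBR (median log2 fold change 0.28), and 2 rose and 3 fell in the libraries labelled ATRX KD (median −0.03). The collagen gene Col3a1 was called lower in both (edgeR adjusted p = 0.0225 in ATRXΔRBR, and 0.0645 with the replicate block), at 28.1 and 32.2 TPM in WT, 20.3 and 15.8 TPM in ATRXΔRBR and 0.36 and 0.75 TPM in the libraries labelled ATRX KD. Dcn was also called lower in the libraries labelled ATRX KD (edgeR adjusted p = 0.0110), at 0 TPM in both, from 1.54 and 0.79 TPM in WT. Fn1 (0.99, edgeR adjusted p = 0.00356) and Pdgfrb (0.51, edgeR adjusted p = 0.0116) were called higher there. The part of these changes in the Smarca2 result was not tested.

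Smarca4 (ENSMUSG00000032187, chr9:21616169-21704230, plus strand), whose product takes the place of SMARCA2 in SWI/SNF complexes, went the other way in the libraries labelled ATRX KD. It stood at 324 and 225 CPM in WT, 251 and 240 CPM in ATRXΔRBR, and 443 and 487 CPM in the libraries labelled ATRX KD. The last pair lay above every other library and was 1.69-fold higher than WT (log2 fold change 0.76, SE 0.18, edgeR adjusted p = 0.0171), whereas ATRXΔRBR overlapped WT (−0.15, SE 0.20, edgeR adjusted p = 0.741). As a share of the summed TPM of both genes, Smarca2 made up 32.1% and 39.9% for WT, 28.3% and 25.7% for ATRXΔRBR, and 5.56% and 4.25% for the libraries labelled ATRX KD. The summed level itself was 162 and 141 TPM for WT, 140.3 and 114 TPM for ATRXΔRBR and 201 and 209 TPM for the libraries labelled ATRX KD. On TPM the pair's RNA was thus higher in total in the last group, with a smaller part of it from Smarca2. The assigned mean transcript length in WT was 1715 bp for Smarca2 and 5402 bp for Smarca4. Full-length Smarca2 transcripts measure 5703 to 5921 bp, so this share does not compare full-length transcripts of both motors.

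**Figure D2:**
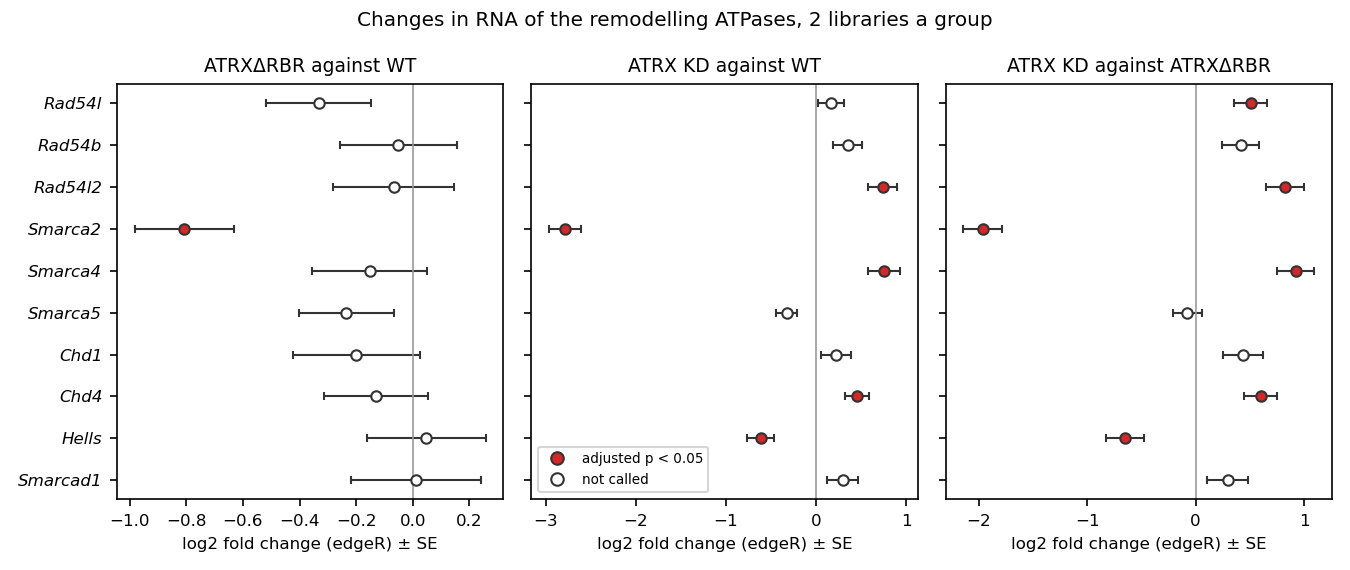
log2 fold changes of the 10 members from edgeR with their standard errors, in ATRXΔRBR against WT, in the libraries labelled ATRX KD against WT and in those against ATRXΔRBR. Filled points have an adjusted p under 0.05. Smarca2 is the lowest point in every panel, and it is the single filled point in ATRXΔRBR against WT.

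Hells (ENSMUSG00000025001, chr19:38930915-38971051, plus strand) was lower in the libraries labelled ATRX KD. It had 409 and 543 CPM in WT, 552 and 427 CPM in ATRXΔRBR, and 314 and 310.4 CPM in the libraries labelled ATRX KD, all of the last below all others. The decrease was 1.53-fold (log2 fold change −0.61, SE 0.15, edgeR adjusted p = 0.0200). It was lost without either library labelled ATRX KD (edgeR adjusted p = 0.0936 without replicate 1 and 0.121 without replicate 2), and on log2(TPM + 1) the difference was −0.30 (limma adjusted p = 0.145). In ATRXΔRBR Hells overlapped WT (0.05, SE 0.21, edgeR adjusted p = 0.935). Smarcad1 (ENSMUSG00000029920, chr6:65042583-65116061, plus strand), a remodeller of replicating chromatin and of broken DNA ends, stood at 52.7 and 73.7 CPM in WT, 71.2 and 55.5 CPM in ATRXΔRBR, and 78.6 and 76.9 CPM in the libraries labelled ATRX KD. Those were above the other 4 without passing the test (0.30, SE 0.17, edgeR adjusted p = 0.230).

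The CHD motors differed in size of change. Chd4 (ENSMUSG00000063870, chr6:125095981-125130591, plus strand) had 407 and 328 CPM in WT, 360 and 307 CPM in ATRXΔRBR, and 486 and 525 CPM in the libraries labelled ATRX KD. It rose 1.37-fold there (log2 fold change 0.46, SE 0.13, edgeR adjusted p = 0.0387), a call that was lost without either of those libraries (edgeR adjusted p = 0.168 and 0.274). Chd1 (ENSMUSG00000023852, chr17:15704967-15772610, plus strand) had 175 and 245 CPM in WT, 206 and 158 CPM in ATRXΔRBR, and 244 and 247 CPM in the libraries labelled ATRX KD. Chd1 overlapped WT in both comparisons (0.22, SE 0.17, edgeR adjusted p = 0.339, in the libraries labelled ATRX KD). Smarca5 (ENSMUSG00000031715, chr8:80698507-80739497, minus strand), the motor that spaces nucleosomes, had 196 and 181 CPM in WT, 169 and 149.5 CPM in ATRXΔRBR, and 157 and 145 CPM in the libraries labelled ATRX KD. Both modified lines lay below WT in every library without passing the test (−0.23, edgeR adjusted p = 0.495, and −0.32, edgeR adjusted p = 0.0737).

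In the RAD54 branch, Rad54l2 (ENSMUSG00000040661, chr9:106688082-106789194, minus strand) passed the test in the libraries labelled ATRX KD. It had 60.8 and 80.3 CPM in WT, 74.4 and 59.5 CPM in ATRXΔRBR, and 115 and 121 CPM in the libraries labelled ATRX KD, a 1.67-fold rise (log2 fold change 0.74, SE 0.16, edgeR adjusted p = 0.0117). Rad54l (RAD54, ENSMUSG00000028702, chr4:116094264-116123690, minus strand), which acts in the search for homologous DNA during recombination, had 57.9 and 70.7 CPM in WT, 49.8 and 51.7 CPM in ATRXΔRBR, and 75.7 and 68.9 CPM in the libraries labelled ATRX KD. Its ATRXΔRBR libraries lay below WT without passing the test (−0.33, SE 0.18, edgeR adjusted p = 0.365). Rad54b (ENSMUSG00000078773, chr4:11558922-11615805, plus strand), the paralogue of Rad54l, had 45.6 and 59.4 CPM in WT, 54.7 and 46.1 CPM in ATRXΔRBR, and 65.5 and 68.6 CPM in the libraries labelled ATRX KD (0.35, SE 0.16, edgeR adjusted p = 0.128, in the last against WT). The end of Rad54l overlaps Lrrc41 on the opposite strand, which had 985 to 2854 estimated counts a library, and Rad54b holds Fsbp on its own strand, with 116 to 248. The strand setting of the counting is not given in the sources used here, so reads in these overlaps may be shared, whereas other genes that overlap a member had at most 3.58 estimated counts in any library, apart from the antisense gene Gm11832 in Rad54b with 5 to 27.

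Counted over the group, 1 of 10 members was called in ATRXΔRBR against WT, where 6.85% of 16334 genes tested were called, 2.79% higher and 4.07% lower, and 5.46% of genes with at least 5 TPM in both WT libraries. The members' median log2 fold change was −0.14 and that of all genes −0.02. In the libraries labelled ATRX KD against WT, 5 of 10 members were called, 3 higher and 2 lower, beside 33.0% of 16785 genes, 15.2% higher and 17.8% lower, and 41.2% of the genes with at least 5 TPM. The members' median was 0.26 and that of all genes −0.02. Both counts lay near the shares among expressed genes. Leaving out 1 library moved these calls, and such a fit holds no spread within the group left with 1 library. Over these fits the log2 fold change ran from −2.95 to −2.57 for Smarca2. It ran from 0.54 to 0.96 for Rad54l2 and from 0.52 to 1.03 for Smarca4.

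Setting the libraries labelled ATRX KD directly against ATRXΔRBR, in 1 fit of all 6 libraries, tests whether the modified lines differ from each other. 6 of 10 members were called, 4 higher and 2 lower, beside 27.6% of 17999 genes (13.4% higher, 14.2% lower) and 34.9% of the genes with at least 5 TPM. Smarca2 was 3.90-fold lower (log2 fold change −1.96, SE 0.18, edgeR adjusted p = 8.3e-05), so its decrease was larger in the libraries labelled ATRX KD than in ATRXΔRBR. Smarca4 (0.92, edgeR adjusted p = 0.00466), Rad54l2 (0.82, 0.00842), Chd4 (0.60, 0.0172) and Rad54l (0.51, 0.0338) were higher, and Hells was lower (−0.65, 0.0234). With the replicate number as a block, Hells and Rad54l were no longer called (edgeR adjusted p = 0.0556 and 0.0791). Without ATRX KD replicate 2 Smarca2 alone was called, without ATRX KD replicate 1 Smarca2 and Smarca4, and without ATRXΔRBR replicate 2 Smarca2, Smarca4 and Hells.

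The count and TPM scales differed for the libraries labelled ATRX KD. The median gene lay 0.20 higher there than in WT on log2(TPM + 1), and the median log2 fold change of all genes on the count scale was −0.02. Of the genes called there, 2551 were higher and 2987 lower on the count scale, against 2610 and 1295 on the TPM scale, and against ATRXΔRBR the calls were 2418 and 2554 on counts and 2251 and 1474 on TPM. Taken relative to the median gene, the TPM differences from WT were −2.53 for Smarca2, 0.80 for Smarca4, 0.70 for Rad54l2, 0.60 for Rad54b and 0.51 for Chd4. They were 0.24 for Rad54l, 0.20 for Chd1, 0.16 for Smarcad1, −0.50 for Hells and −0.04 for Smarca5. Smarca5 thus changed sign between the scales before this centring, from −0.32 on counts to 0.16 on TPM. Its assigned mean transcript length was 5459 bp in WT and 4533 bp in the libraries labelled ATRX KD, a ratio of 0.831 that 5.72% of 10121 genes reached or undercut, with a median of 0.999.

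**Figure D3:**
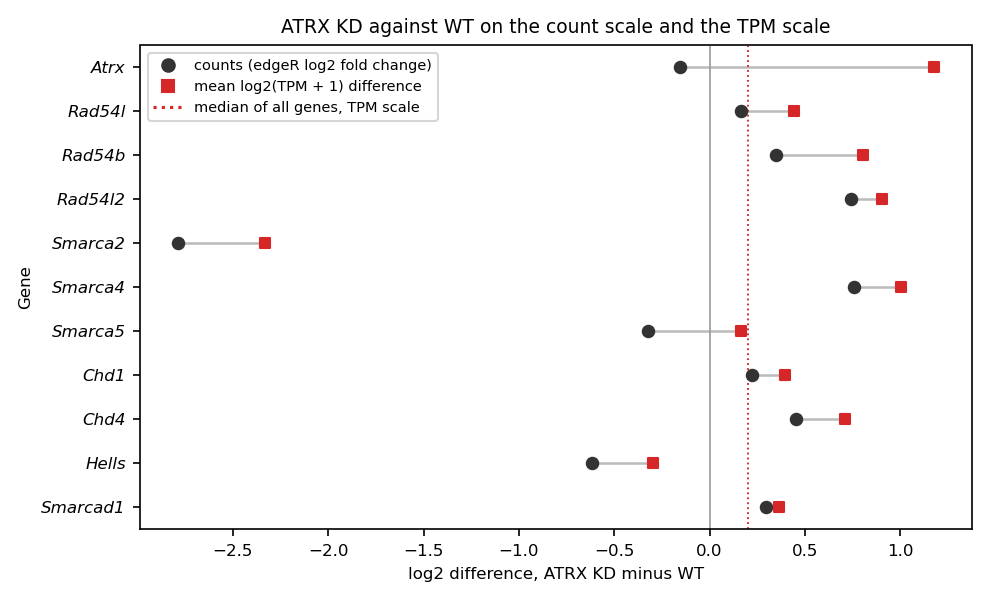
The change of each member in the libraries labelled ATRX KD against WT, on the count scale (edgeR log2 fold change) and on log2(TPM + 1). Smarca2 is far below 0 on both scales, and Smarca5 is at −0.32 on counts and 0.16 on TPM.

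The other genes of the Snf2 family and the partners of the members were counted in 7 lists of 92 genes. In ATRXΔRBR against WT, 5 of 90 tested were called, 2 higher and 3 lower, with a median of 0.04, beside 6.85% of all genes tested. Of 22 other Snf2-family ATPases, 2 fell. Smarca1 (SNF2L), the second ISWI motor, had 27 and 22 estimated counts in WT and 0 in all ATRXΔRBR libraries, at least 15.1-fold lower when 3 counts over the group are taken as the floor. Chd7, a developmental remodeller, had 2.16 and 2.57 TPM in WT and 0.45 and 0.28 TPM in ATRXΔRBR (log2 fold change −2.33, SE 0.36, edgeR adjusted p = 0.00769). Among the partners, Bard1, the partner of BRCA1, rose (0.97, SE 0.19, edgeR adjusted p = 0.0209), as did the SWI/SNF subunit gene Bicral (0.81, SE 0.20, edgeR adjusted p = 0.0487, and 0.120 with the replicate block). The recombination gene Xrcc2 fell, from 17.3 and 24.9 TPM to 10.3 and 8.49 TPM (−1.18, SE 0.19, edgeR adjusted p = 0.00998). None of 8 ISWI partners, 12 NuRD subunits, 7 HELLS partners and DNA methylation genes or 5 ATRX partners was called by edgeR or by DESeq2, and unadjusted edgeR p-values under 0.05 numbered 1, 1, 0 and 1 in these lists. Of 19 proliferation genes edgeR called 0, with 3 at an unadjusted p under 0.05, and DESeq2 called 1.

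In the libraries labelled ATRX KD against WT, 43 of 89 tested partner and family genes were called, 30 higher and 13 lower, with a median of 0.17. The counts of each list stand beside 33.0% of all genes tested, 15.2% higher and 17.8% lower, and 41.2% of the genes with at least 5 TPM. Of 22 other Snf2-family ATPases, 9 rose and 1 fell. Srcap, which loads the histone variant H2A.Z, rose (log2 fold change 1.42, SE 0.25, edgeR adjusted p = 0.00636). Chd8 had 60.5 and 64.2 TPM in WT and 142 and 171 TPM there (1.33, SE 0.13, edgeR adjusted p = 0.000694), and Smarca1 had 0 counts in both libraries, at least 20.0-fold lower on the same floor. Of 23 SWI/SNF subunits tested, 7 rose and 4 fell, among them Arid1b (0.84), Bicra (0.83) and Actl6a (−0.82). Of 8 ISWI partners, 4 rose and 2 fell, led by Chrac1 (−1.0), Bptf (0.87) and Baz1a (0.79), and of 12 NuRD subunits 2 rose and 4 fell, led by Cdk2ap1 (−0.91), Gatad2b (0.79) and the deacetylase gene Hdac2 (−0.55). The called share was 47.8% of the SWI/SNF list and 50% of the NuRD list.

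Of 12 homologous recombination genes, 3 rose and 2 fell in the libraries labelled ATRX KD, among them Rad52 (−1.21) and Bard1 (1.01). Of 7 HELLS partners and DNA methylation genes, Dnmt3a and Dnmt1 rose. Dnmt3a, a de novo methyltransferase, had 8.41 and 13.7 TPM in WT and 23.7 and 28.1 TPM there (0.97, SE 0.14, edgeR adjusted p = 0.0029), and Dnmt1, the maintenance enzyme, was 0.40 higher (SE 0.12, edgeR adjusted p = 0.0344, and 0.0570 with the replicate block). Among the ATRX partners, H3f3a, which encodes histone H3.3, rose by 0.61 (edgeR adjusted p = 0.0454), a call lost with DESeq2 (adjusted p = 0.134), with the replicate block (0.0542) and on log2(TPM + 1) (limma adjusted p = 0.080). Cbx5, which encodes a heterochromatin protein, rose by 0.38 (edgeR adjusted p = 0.0282), a call lost with the replicate block (0.0675) and on log2(TPM + 1) (limma adjusted p = 0.0958). Of 19 proliferation genes, given as a measure of cycling cells, 6 rose and 6 fell, led by Mcm7 (−1.06), Mki67 (1.00) and Pcna (−0.83), and their part in the members' changes was not tested. In the libraries labelled ATRX KD against ATRXΔRBR, 25 of 90 list genes were called, 17 higher and 8 lower, beside 27.6% of all genes tested.

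Peaks at the members' start sites were read from the CUT&RUN lists within 2 kb of the transcription start site (TSS) of GENCODE. With 2 lists against 2 an exact permutation test cannot go below a two-sided p of 0.333, so presence and width are given without a test, and the peak lists do not carry the read number of each library. In WT, EZH2 peaks lay at 10 members in replicate 1 and at 8 in replicate 2, where Rad54b and Hells had none. The 8 found in both lists compare with 75.7% of 9571 expressed protein-coding genes. In ATRXΔRBR, 10 and 6 members had an EZH2 peak, and the 6 in both lists compare with 57.2%. Replicate 2 of ATRXΔRBR lacked peaks at Rad54b, Smarca4, Hells and Smarcad1, and its list was shorter, with 11408 against 22418 peaks in replicate 1. Under the ATRX KD label, 3 and 6 members had a peak, from lists of 5376 and 7093 peaks. Those in both lists were Smarca2, Smarca5 and Smarcad1, beside 26.5% of expressed genes.

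**Figure D4:**
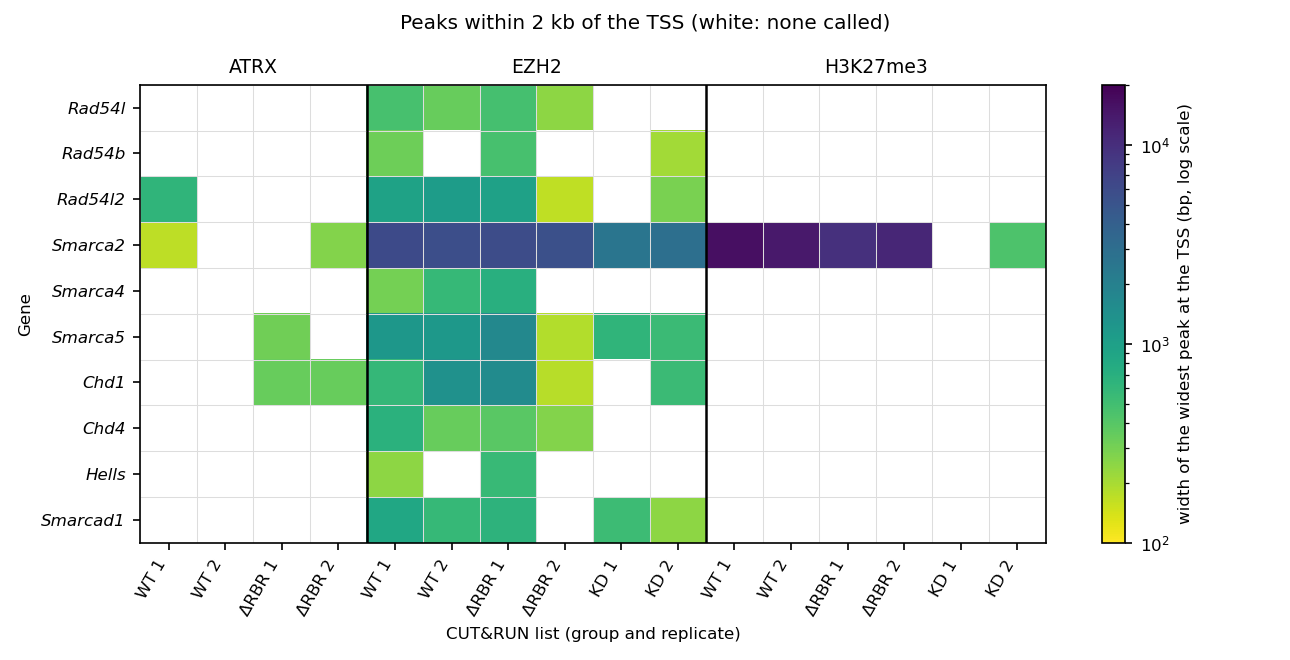
The widest called peak within 2 kb of the TSS of each member (rows) in each CUT&RUN list (columns), coloured by width on a log scale, with white where no peak was called. EZH2 peaks are found at all 10 members in WT replicate 1, and H3K27me3 peaks at Smarca2 alone.

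Smarca2 was also the member with the widest chromatin domain. Its EZH2 peak at the TSS covered 6111 and 5644 bp in WT and 5798 and 5449 bp in ATRXΔRBR. In the libraries labelled ATRX KD the peak covered 2554 and 2876 bp. The other members had EZH2 peaks of at most 1201 and 1368 bp in the WT lists, and of the expressed genes with a peak 0.223% and 0.266% had one as wide as that of Smarca2 for WT, 0.252% and 0.27% for ATRXΔRBR and 0.066% and 0.05% for the libraries labelled ATRX KD. The median width moved too, from 686 and 605 bp in WT to 401 and 435 bp in the libraries labelled ATRX KD, whose lists also differed in scale, with largest −log10 q-values of 170 to 179 against at most 36.8 elsewhere. The part of this difference between lists in the narrower Smarca2 peak was not tested.

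H3K27me3 marked Smarca2 alone among the members. In both WT and both ATRXΔRBR lists 1 of 10 members had a peak at its TSS, beside 2.96% and 4.63% of expressed genes with one in both lists. The Smarca2 domain was 15964 and 13979 bp wide in WT and 9515 and 11268 bp in ATRXΔRBR, so both ATRXΔRBR domains were narrower than both WT domains. Unlike its EZH2 peak, it was not among the rarest widths. Of the expressed genes with an H3K27me3 peak at the TSS, 10.7% and 16.9% had one as wide in WT and 30.1% and 24.7% in ATRXΔRBR, where the median width was itself larger, at 5504 and 5224 bp against 3705 and 3675 bp in WT. In the libraries labelled ATRX KD no member had a peak at the TSS in both lists, beside 0.825% of expressed genes, and the lists held 7241 and 6336 peaks against 33105 to 38832 in the other lines. There replicate 2 held a peak of 436 bp near the Smarca2 TSS, and pieces of 1889 and 1930 bp lay 3891 and 4010 bp downstream of the TSS in replicates 1 and 2. The Smarca2 RNA level was lower in both modified lines. The H3K27me3 domain was narrower in ATRXΔRBR than in WT, and only these pieces were called in the libraries labelled ATRX KD. The part of the shorter peak lists in this, and any link between mark and RNA, was not tested.

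ATRX peaks at the members were few and seldom shared by replicates. In WT replicate 1 they lay at Smarca2, over the CG-rich stretch before its outermost start, and at Rad54l2, and WT replicate 2 had none, so 0 of 10 members had one in both lists, beside 6.97% of expressed genes. In ATRXΔRBR, replicate 1 had peaks at Chd1 and Smarca5 and replicate 2 at Chd1 and Smarca2. Chd1 was thus the 1 member with a peak in both, beside 5.95%. The peaks at Rad54l2 (−log10 q 1.41) and Smarca5 (1.58) were weak beside that at Smarca2 in WT replicate 1 (4.70). Kept at a q-value of 0.01 or less, replicate 1 had 1 member in WT and 1 in ATRXΔRBR. The counts in both lists stayed at 0 for WT and 1 for ATRXΔRBR. Outside the start sites, an intron of Hells, the stretch with 0 CG, held a peak 8372 bp into the gene. That peak had the same ends in replicate 2 of WT and of ATRXΔRBR. Smarca4 held one of 308 bp in WT replicate 1, also weak (−log10 q 1.32).

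Smarca2 has a second set of starts inside the gene, and its peaks there differed between lists. GENCODE lists 46 transcripts, of which 19 begin at chr19:26747600-26748532, 142550 bp downstream of the outermost start, and are 630 to 2333 bp long, while the 3 full-length ones measure 5703 to 5921 bp. The mean transcript length RSEM assigned to Smarca2 was 1533 to 1741 bp in every library, within the range of the short set. EZH2 peaks over the internal starts were 839 and 622 bp wide in WT and 589 bp in ATRXΔRBR replicate 1, and none was called in ATRXΔRBR replicate 2 or in either library labelled ATRX KD. An ATRX peak of 596 bp lay there in WT replicate 1 alone, and no list had an H3K27me3 peak there. The gene totals do not say which starts lost RNA. A stretch from within the bases that both WT EZH2 peaks and the ATRX peak cover at these starts (chr19:26747864-26748163, plus strand, GRCm38, CG in capitals) lies in no RefSeq exon and holds 11 CG in 300 bases (GC 49.7%), fewer per base than the outermost promoter.
Smarca2 internal: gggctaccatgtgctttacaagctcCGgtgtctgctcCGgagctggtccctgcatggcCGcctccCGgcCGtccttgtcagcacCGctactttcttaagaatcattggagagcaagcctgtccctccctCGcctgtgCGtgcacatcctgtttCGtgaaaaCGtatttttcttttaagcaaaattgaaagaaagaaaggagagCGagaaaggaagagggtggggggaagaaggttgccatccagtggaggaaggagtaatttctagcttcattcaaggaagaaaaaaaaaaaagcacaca

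**Figure D5:**
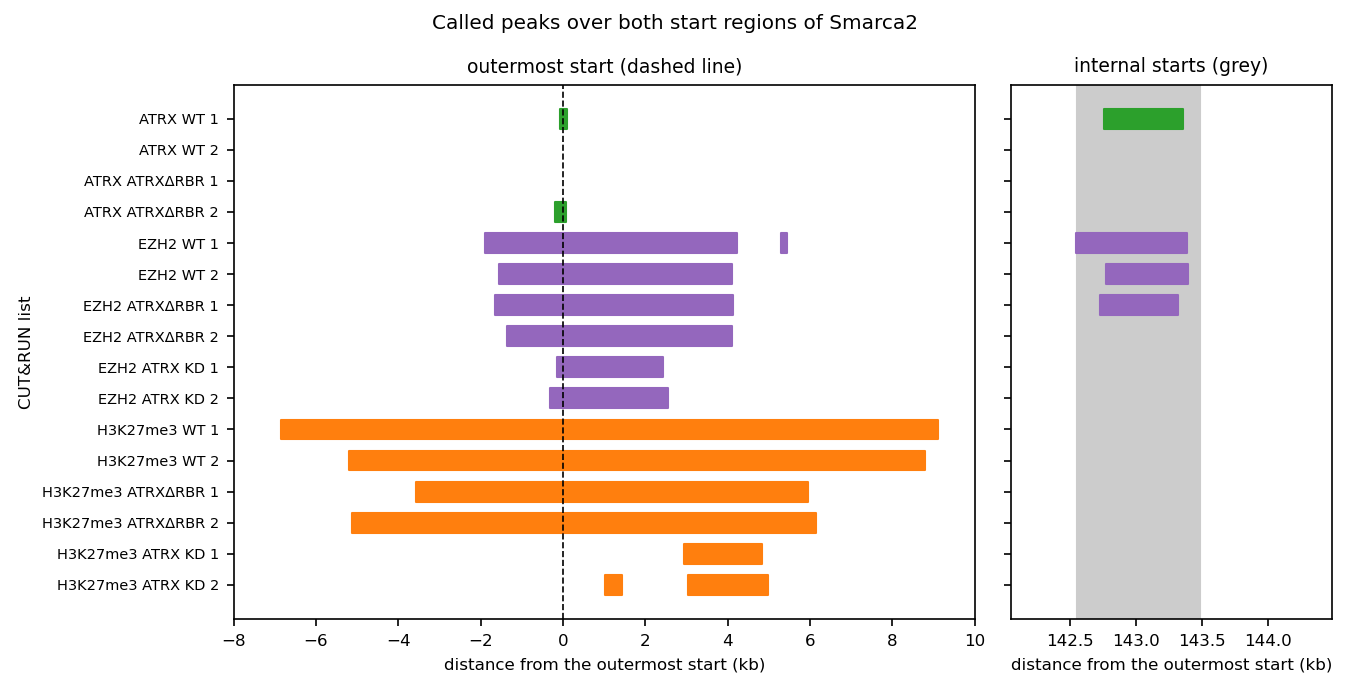
Called peaks (bars) over the outermost start of Smarca2 (left, dashed line) and its internal starts (right, grey), 1 row per CUT&RUN list, by distance from the outermost start. The H3K27me3 and EZH2 bars at the outermost start are shorter in the libraries labelled ATRX KD, and the internal starts carry EZH2 bars in WT replicates 1 and 2 and ATRXΔRBR replicate 1.

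For the 3 members with the highest WT level, the genes with the most similar pattern were looked up among 9510 genes with at least 5 TPM in every library, by Pearson correlation of log2(TPM + 1) over the 6 libraries. Nearest to Hells were Actr6 (r = 0.984), 4833420G17Rik (0.979) and Enc1 (0.977). Nearest to Chd4 were Rbm27 (0.998), Entpd7 (0.998) and Cdca2 (0.995), and nearest to Smarca4 were Efna2 (0.998), Acin1 (0.997) and Ska2 (0.996). With 6 libraries that share depth and group differences, such values describe these libraries only.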

How the data were processed

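The values analysed were the deposited RSEM estimated counts (expected counts) and TPM of 6 RNA-Seq libraries, and 16 deposited CUT&RUN peak lists of ATRX, EZH2 and H3K27me3. Per the study's methods, the authors aligned RNA-Seq reads with STAR, and they mapped CUT&RUN reads to mm10 with Bowtie2 and called broad peaks in each library with MACS2. The deposited lists give a fold enrichment and a −log10 q-value for each peak. IgG libraries were not analysed here.

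The study's differential analysis used DESeq2. Here estimated counts were rounded, genes with more than 10 counts in total were kept, and groups were compared with edgeR 4.0.16 (quasi-likelihood test, TMM scaling, R 4.3.3), with Benjamini-Hochberg adjustment over all genes tested and calls at an adjusted p under 0.05. ATRX KD against ATRXΔRBR was fitted on all 6 libraries, the others on their 4. DESeq2 1.42.0, and limma 3.58.1 on log2(TPM + 1) for genes with a mean TPM of at least 1, were alternatives, as were other filters, the replicate number as a block and leaving out each library. Peaks were assigned at an overlap of 1 bp within 2 kb of the TSS of GENCODE M21. The peak lists give no read number for each library, so presence and width are given without counting intervals. The scripts were tested on simulated data. Promoter sequences are from RefSeq (GRCm38.p6), other sequences from the same assembly.

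Text names all members and Atrx, up to 3 called genes with the largest change from each list (other Snf2-family ATPases, SWI/SNF subunits, ISWI partners, NuRD subunits, homologous recombination genes, HELLS partners and DNA methylation genes, ATRX partners and proliferation genes), the 3 nearest genes of the 3 highest members, and overlapping genes. Some listed genes are not reported here by name. Members and lists were chosen with earlier results of these data known.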

Additional observations from a re-analysis of the deposited data

Results flagged for a closer look

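Of the members and the genes named from the 7 family and partner lists, 17 were picked out because their change against WT differed between the modified lines. The test set the libraries labelled ATRX KD against ATRXΔRBR in the fit of all 6 libraries (edgeR adjusted p under 0.05). Proliferation genes and fibroblast markers were outside this selection, though Mcm7 (−0.71), Pcna (−0.71), Col3a1 (−6.06) and Dcn also passed that threshold. Among the members the log2 differences were −1.96 for Smarca2, −0.65 for Hells, 0.51 for Rad54l, 0.60 for Chd4, 0.82 for Rad54l2 and 0.92 for Smarca4. Among the other Snf2-family ATPases they were 3.22 for Chd7 and 1.06 for Chd8. Of the ISWI partners, Baz1a differed by 1.25, Bptf by 1.11 and Chrac1 by −1.48, and the SWI/SNF subunit gene Actl6a differed by −0.47. Of the recombination genes, Xrcc2 differed by 1.07 and Rad52 by −0.84. Dnmt3a differed by 1.31, Dnmt1 by 0.47 and the histone H3.3 gene H3f3a by 0.75. Chd7 is the one gene of these that was called lower in ATRXΔRBR than in WT and yet stood above both WT libraries in the libraries labelled ATRX KD, at 6.94 and 5.28 TPM against 2.16 and 2.57 TPM. Batch and group cannot be told apart for the libraries labelled ATRX KD, so the part of a batch in these differences was not tested.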

How the results depend on the processing

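Of 270 member values under the alternatives, 212 kept their direction and side of the threshold, 31 lost a call, 6 gained one and 21 reversed, and the cause was not tested. DESeq2 called as many members as edgeR in each of the 3 comparisons (1, 5 and 6). With 2 libraries a group, single libraries can decide a call, and the peak lists give no read number for each CUT&RUN library. A fit without 1 library leaves 1 in its group, so its p-values hold no spread within that group.

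Members called in ATRXΔRBR against WT (1 of 10) numbered 0 with log2(TPM + 1) and 0 to 1 when leaving out 1 library. List genes called there (5) numbered 8 with no filter on low counts, 3 with at least 10 counts in every library, 8 with all 6 libraries in 1 fit, 0 on log2(TPM + 1), and 4 to 8 without 1 library (8 without WT replicate 2). Atrx was −0.65 with no filter (edgeR adjusted p = 0.00806), and −0.88 to −0.34 without 1 library. In ATRX KD against WT, 3 to 10 members were called without 1 library (10 without WT replicate 2, 3 without either library labelled ATRX KD), 28 list genes on log2(TPM + 1) and 21 to 67 without 1 library (67 without WT replicate 2, 22 and 21 without replicates 1 and 2 labelled ATRX KD). Atrx there was 1.18 on log2(TPM + 1) and −0.40 to 0.14 without 1 library. In ATRX KD against ATRXΔRBR, 1 to 4 members were called without 1 library. Over all genes, ATRXΔRBR against WT gave 1119 calls and 287 on log2(TPM + 1), ATRX KD against WT gave 5538 and 3193 to 8947 without 1 library, and ATRX KD against ATRXΔRBR gave 4972 and 1906 to 4392 without 1 library.

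Directions reversed in ATRXΔRBR against WT for Rad54b (0.16 with either TPM pseudocount, −0.23 to 0.16 without 1 library) and Hells (−0.032 with either, −0.15 to 0.27), and without 1 library for Rad54l2 (−0.25 to 0.15), Smarca4 (−0.39 to 0.13), Chd1 (−0.42 to 0.069), Chd4 (−0.27 to 0.034) and Smarcad1 (−0.21 to 0.28). None of these was called. Smarca5 turned to 0.16 on both TPM settings in ATRX KD against WT, and to 0.37 on both against ATRXΔRBR (−0.17 to 0.0098 without 1 library), and Chd1 in ATRX KD against WT ranged from −0.013 to 0.49.

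The labels give the groups shared replicate numbers and no pairing. Deviations of same-numbered libraries correlated at −0.734 (WT and ATRXΔRBR), −0.135 (WT and ATRX KD) and 0.173 (ATRXΔRBR and ATRX KD). With the replicate block, 0 members were called in ATRXΔRBR against WT, 5 in ATRX KD against WT and 4 in ATRX KD against ATRXΔRBR, where Hells and Rad54l lost their calls. A crossed pairing, chosen after seeing the data, called 2 members, 38 list genes and 5585 genes in ATRXΔRBR against WT, with Atrx at −0.62, and 6465 genes in ATRX KD against WT.

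Members with a peak at the TSS in every list kept numbered 0 to 2 for ATRX in WT and 2 in ATRXΔRBR, 6 to 10 for EZH2 in ATRXΔRBR and 3 to 6 in the libraries labelled ATRX KD, and 0 to 1 for H3K27me3 there, when leaving out 1 list. With the starts of all annotated transcripts H3K27me3 had 1 member there.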
